A study of Mus musculus with 20 samples.

Results

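The step from 6 to 12 hours after hormonal induction of 3T3-L1 cells was examined, with the 12 hours samples as the later side and the 6 hours samples as the earlier one. It comprised 4 of the 20 samples of the series, 1 sample per time point on each of 2 Affymetrix array types, array A and array B, with different probe sets. 3T3-L1 is a clonal mouse fibroblast line whose confluent, growth-arrested cultures turn into fat-storing cells after induction. Induction was by MDI, which stands for isobutylmethylxanthine, dexamethasone and insulin, and both the 12 and the 6 hours cells had received it. The other time points were preconfluent and confluent cells without induction, 24 hours, and days 2, 3, 4, 7 and 28 after it. Uninduced cells kept for the same hours were not analysed here, so elapsed culture time and the inducing mixture cannot be told apart. With 1 sample a side no difference could be set against a replicate, and no p-value is given.

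Values were linear intensities, in the authors' arbitrary scale. Intensities under 136 on array A and under 156 on array B were set to those floors before log2 was taken. A probe set, the group of probes that stands for 1 transcript, was counted as higher or lower where it differed by 2-fold or more and its brighter value was above 500. This is called the 2-fold limit below. Where the dimmer value lay at or below the floor, the ratio is a lower bound and is given as "at least". Intensities themselves are printed as deposited, so some are below 0. Where a gene had several probe sets, the brightest over the 2 times stood for it. Levels of different genes come from different probes and are not compared with each other.

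Cells arrested at confluence rest before DNA replication. In 3T3-L1 cultures the inducing mixture is known to bring them back into the cell cycle for a short period of growth named clonal expansion, before fat genes come on. Entry into S phase depends on cyclin E with Cdk2, which releases E2F factors from the retinoblastoma protein, and E2F factors are known activators of genes for replication proteins. The Mcm proteins form the ring-shaped helicase that Cdt1 and Cdc6 load at replication origins and that Cdc45 joins when the helicase fires. Immediate early genes, by contrast, are switched on within minutes of a stimulus without new protein synthesis and usually fade within hours.

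The genes for the replicative helicase were higher at 12 hours throughout. The geometric mean intensity of Mcm2, Mcm3, Mcm4, Mcm5, Mcm6 and Mcm7, floors applied, was 1191 at 12 hours, against 292 at 6 hours. Of 18 DNA replication genes above 500 at either time, 10 passed the 2-fold limit upward and 0 downward, with a median log2 difference of 1.24. With probe sets of the array maker's plain class alone, those with no suffix letter, 1 of 3 passed upward. Among all 2324 named genes above 500, 125 passed upward, or 5.38%, 130 passed downward, or 5.59%, and the median difference was 0.03. Among the 130 genes past the limit downward were Vcam1, Csf1 and Ier3.

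Signs of RNA quality and depth were close between the samples. The 3' to 5' intensity ratio of the Gapdh control, a sign of RNA integrity, was 1.43 at 12 hours and 1.61 at 6 hours on array A, and 0.766 and 0.722 on array B. On array A 1949 probe sets were above 500 at 12 hours and 1908 at 6 hours; on array B the counts were 1662 and 1711. Of 15 fibroblast markers on the arrays, 11 were above 500 at both times, and their summed intensity was 124170 at 12 hours and 122722 at 6 hours. Of 11 adipocyte markers 2 were above 500 at 12 hours and 3 at 6 hours. Lpl had 6000 at 12 hours and 6260 at 6 hours, Retn had 626 and 640, and Lipe had 498 and 543. Cd36, Cebpa, Cidec, Fabp4, Gpd1, Pparg and Slc2a4 lay at or below the floor at both times. Macrophage markers summed to 4367 at 12 hours and 5375 at 6 hours over 10 genes, of which 3 were above 500. Cd14 had 1590 at 12 hours and 2250 at 6 hours, Lyz2 had 1200 and 1650, and C1qb had 703 and 754. Adgre1, C1qa, Csf1r, Fcgr1 and Mrc1 were at or below the floor at both times. Endothelial markers summed to 1385 and 1755 over 8 genes. Of these 1, Kdr, was above 500, with 798 at 12 hours and 837 at 6 hours. Cdh5, Flt1, Pecam1 and Tie1 were at or below the floor at both times. Of 10 skeletal muscle markers Acta1, Des, Myf5, Myh3 and Tnnt3 were at or below the floor at both times. The 10 summed to 3908 at 12 hours and 5117 at 6 hours. Ckm had 1830 at 12 hours and 3340 at 6 hours, and Mb had 398 and 523. Myog, a muscle transcription factor, was the marker that passed the 2-fold limit, with 906 at 12 hours and 323 at 6 hours.

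On array A 2179 probe sets were above 500 at either time, of which 131 were higher (6.01%) and 114 lower (5.23%). On array B 1825 were above 500, of which 56 were higher (3.07%) and 83 lower (4.55%). The dimmer value lay at the floor for 27 of the higher and 22 of the lower probe sets on array A, and for 10 and 11 on array B. Every probe set with 1 value above 500 and the other at the floor passes the limit by construction, which held for 49 sets of array A and 21 of array B. Among the probe sets above 500 at both times, 25 were higher and 31 lower of 1678 on array A, or 3.34% in either direction, and 22 and 29 of 1548 on array B, or 3.29%.

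**Figure D1:**
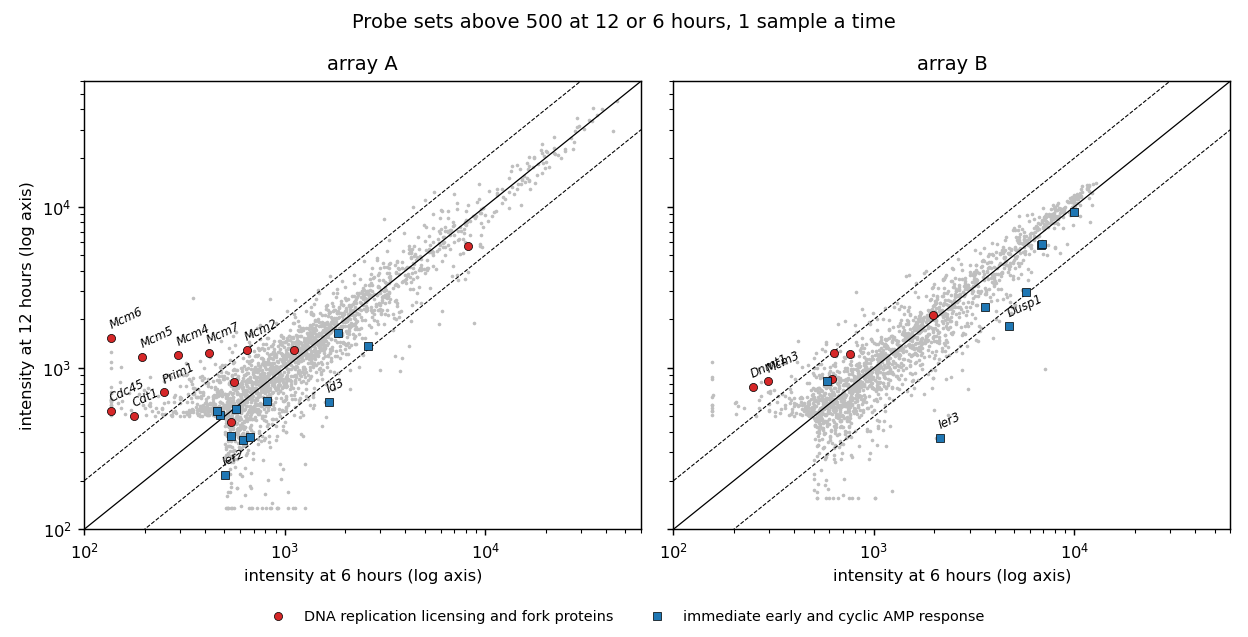
Intensity at 12 hours (vertical, log axis) against 6 hours (horizontal, log axis) for every probe set above 500 at either time, array A left and array B right, 1 sample a time, with low values at the floor. The solid line marks equal values and the dashed lines 2-fold; red circles are DNA replication genes, which lie mostly above the upper dashed line, and blue squares are immediate early and cyclic AMP response genes, which lie mostly below the solid line.

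Probe sets of the same gene served as the internal check that the design allowed. Of 300 genes with at least 2 probe sets above 500, 42 had 1 or more past the 2-fold limit. In 30 of these all probe sets above 500 differed in the same direction, and in 12 they did not. In the 258 genes with no probe set past the limit, 151 had all of theirs in one direction. At least 2 probe sets passed the limit for Mtm1, Gng11, Iqgap1, Trim47, Lcn2 and Ldhb, and in 0 of these genes did they pass in opposite directions. Iqgap1, a scaffold of the actin cortex, is the widest example: its 5 probe sets above 500 were all lower at 12 hours, with 1400, 493, 53, 1010 and 759 at 12 hours, against 2250, 1190, 545, 1390 and 1230 at 6 hours in the same order. By their names, the Iqgap1 sets with 1400 and 493 share a source sequence, as do those with 53 and 1010. The same holds for the pairs of Gng11 and of Trim47. Sets made from the same sequence are not independent, so their agreement is a weaker check. Probe sets disagreed for Nxf1, Il6st, Nmt1, Dnajb1, Cox7b, Srrm1, Jarid2, H2-K1, Hspg2, Cdkn1a, Itga3 and Ly6c2, and no direction is given for these genes.

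Mcm6, a helicase subunit, had an intensity of 1540 at 12 hours, against 59 at 6 hours, which is at least 11.3-fold higher. This was the largest ratio among the named genes, leaving out those with probe sets above 500 in both directions. Mcm6 had no other probe set above 500, so agreement was not checked there. Over the early times it had 1040 in preconfluent cells, 393 in confluent cells, 59 at 6 hours, 1540 at 12 hours and 1250 at 24 hours. The 6 hours sample was thus the lowest of these times and the 12 hours sample the highest. This Mcm6 probe set belongs to a class that the array maker marks as shared by a family of related sequences, and a second Mcm6 probe set lay below 0 at both times, with -746 at 12 hours and -243 at 6 hours.

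Mcm5 had 1170 at 12 hours and 195 at 6 hours, a ratio of 6.00. Mcm4 had 1200 at 12 hours and 294 at 6 hours, or 4.08-fold more. Mcm7 had 1240 at 12 hours and 417 at 6 hours, or 2.97-fold more. All of these are subunits of the same ring, and all were measured on array A by probe sets outside the family class. On array B Mcm3 had 824 at 12 hours and 297 at 6 hours, or 2.77-fold more. Mcm2 had 1290 and 645, a ratio of 2.00 that meets the limit exactly. Tyms stood just inside the limit with it, and just outside were Ikbkg, with 691 at 12 hours and 347 at 6 hours, and Hexa, with 697 and 1390.

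The sequence around the gene start is shown for 6 of the genes that were higher, because each carries a short E2F word and the reader can see where it sits. The words searched were TTTCCCGC, TTTGGCGC, TTTCGCGC and TTTGCCGC on both strands, in 300 bases from 250 before to 50 after the start, taken from RefSeq on GRCm38.p6. Capitals mark the words; a word on the opposite strand appears as its reverse complement, and overlapping words form 1 longer capital run. Mcm3 lies at chr1:20820263-20820562 on the minus strand, Mcm5 at chr8:75109259-75109558 on the plus strand, Mcm6 at chr1:128359656-128359955 on the minus strand and Mcm7 at chr5:138171834-138172133 on the minus strand. Cdt1 lies at chr8:122567765-122568064 on the plus strand and Ezh2 at chr6:47594981-47595280 on the minus strand.
Mcm3: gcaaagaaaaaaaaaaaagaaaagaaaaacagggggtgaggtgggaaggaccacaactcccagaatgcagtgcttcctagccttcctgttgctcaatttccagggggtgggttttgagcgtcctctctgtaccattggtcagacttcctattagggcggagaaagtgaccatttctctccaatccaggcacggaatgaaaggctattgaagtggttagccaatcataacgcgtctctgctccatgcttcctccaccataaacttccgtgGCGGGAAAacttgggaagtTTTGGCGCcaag
Mcm5: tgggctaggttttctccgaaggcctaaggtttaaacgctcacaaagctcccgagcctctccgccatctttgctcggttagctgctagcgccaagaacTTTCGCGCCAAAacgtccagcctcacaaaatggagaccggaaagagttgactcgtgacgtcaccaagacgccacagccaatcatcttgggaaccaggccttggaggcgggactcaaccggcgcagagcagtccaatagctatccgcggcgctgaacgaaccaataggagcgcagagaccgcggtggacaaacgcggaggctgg
Mcm6: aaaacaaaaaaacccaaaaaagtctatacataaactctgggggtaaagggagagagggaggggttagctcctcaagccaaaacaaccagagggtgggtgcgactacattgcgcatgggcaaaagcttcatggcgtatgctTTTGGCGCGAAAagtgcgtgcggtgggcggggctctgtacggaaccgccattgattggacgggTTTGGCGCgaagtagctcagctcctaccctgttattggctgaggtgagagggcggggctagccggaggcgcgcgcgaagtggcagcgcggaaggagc
Mcm7: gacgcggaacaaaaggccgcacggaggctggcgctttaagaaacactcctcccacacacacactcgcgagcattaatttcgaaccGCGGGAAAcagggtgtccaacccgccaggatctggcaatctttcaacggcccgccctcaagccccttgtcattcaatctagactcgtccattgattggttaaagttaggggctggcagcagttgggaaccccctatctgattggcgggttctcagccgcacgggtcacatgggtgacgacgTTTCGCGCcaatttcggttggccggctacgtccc
Cdt1: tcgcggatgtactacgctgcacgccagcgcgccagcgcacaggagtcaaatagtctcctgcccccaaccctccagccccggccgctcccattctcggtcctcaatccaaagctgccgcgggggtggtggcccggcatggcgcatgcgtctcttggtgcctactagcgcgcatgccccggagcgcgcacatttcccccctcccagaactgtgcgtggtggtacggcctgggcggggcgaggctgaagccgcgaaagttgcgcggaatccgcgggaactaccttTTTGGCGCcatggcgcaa
Ezh2: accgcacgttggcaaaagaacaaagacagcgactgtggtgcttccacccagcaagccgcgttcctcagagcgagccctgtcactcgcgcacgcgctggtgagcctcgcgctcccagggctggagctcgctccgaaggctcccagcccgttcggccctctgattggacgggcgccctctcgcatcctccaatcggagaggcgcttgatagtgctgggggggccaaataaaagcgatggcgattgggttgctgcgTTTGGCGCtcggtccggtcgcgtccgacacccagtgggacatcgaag

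Counted from 0 at the start, the words of Mcm6 began at -110, -106 and -47 and those of Mcm5 at -153 and -149, in each gene with an overlapping pair on opposite strands. Mcm3 held words at 19 and 38, Mcm7 at -165 and 16, Cdt1 at 32 and Ezh2 at 3. Cdk2 held one at -140. Dnmt1 had 3 annotated windows, of which 1, inside the gene, held a pair at -219 and 33 and the others, among them that of the outermost start, held no word. Mcm7 had 2 windows, and the one shown holds its words. A gene was counted where any of its windows held a word. Of the 10 replication genes that passed the limit 9 had a promoter entry, and 6 of these 9 held a word, namely Cdt1, Dnmt1, Mcm3, Mcm5, Mcm6 and Mcm7. Of the 8 replication genes that did not pass, 8 had an entry and 0 held a word. The other cell cycle lists did not show this split. Among their higher genes with an entry, 0 of 2 for nucleotide synthesis, 0 of 3 for repair and 0 of 2 for mitosis held a word. For G1 and S phase it was 1 of 3 and for histones and chromatin 1 of 2. Tfdp1, Cbx3 and Cdk1 held a word without passing. Among all 32851 promoters of this length 2.26% held one of the 4 words, and among the 1888 genes above 500 that had an entry 4.98% did. Over all named genes the share was 11.1% of those higher at 12 hours, or 12 of 108, and 1.96% of those lower, or 2 of 102, beside 4.77% of the genes within the limit. The Mcm and other replication genes make up much of the higher count, since 8 of its 12 genes came from the cell cycle lists. The CCAAT box and the GC box GGGCGG, which many promoters carry, were found in 37.4% and 35.7% of all promoters. A match describes letters in this window and is not evidence of binding.

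**Figure D2:**
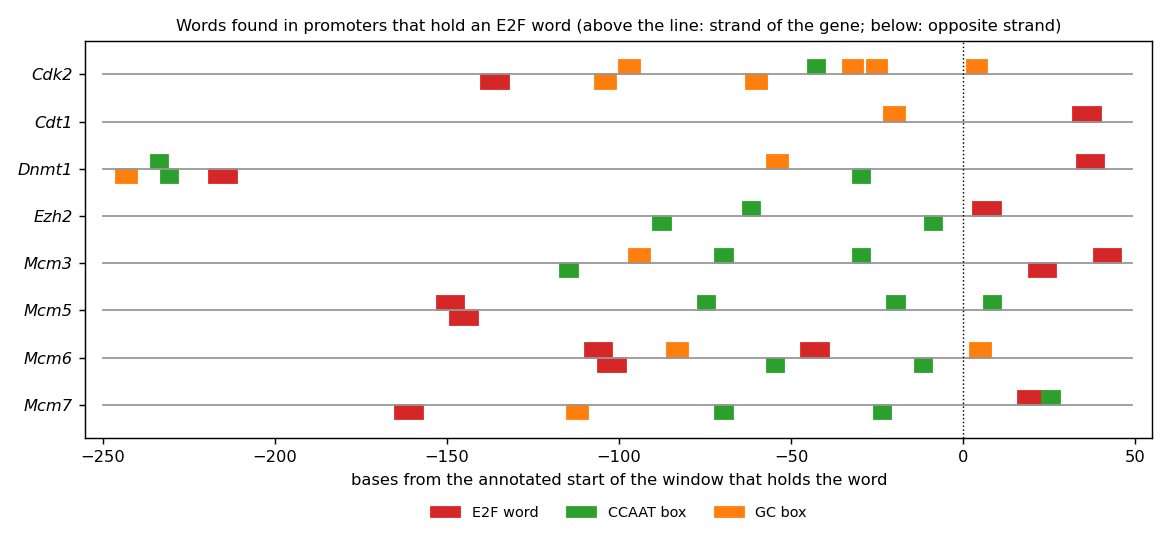
Position of E2F words (red), CCAAT boxes (green) and GC boxes (orange) in 300 bases around an annotated start for the 8 cell cycle genes that were higher at 12 hours and hold an E2F word; the horizontal axis is bases from the start of the window that holds the word, which for Dnmt1 lies inside the gene, with marks above each line on the gene's own strand and below it on the opposite strand. Mcm5 and Mcm6 each show an overlapping pair on opposite strands upstream of the start.

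Genes for proteins that load and fire the helicase were higher as well. Cdt1, the loading factor, had 505 at 12 hours and 178 at 6 hours, or 2.84-fold more. Cdc45, which joins the helicase at firing, had 544 at 12 hours and 65 at 6 hours, at least 4.00-fold higher. A second Cdc45 probe set had 456 and 326. Cdc6, the other loader, was too dim to count, with 308 at 12 hours and 40 at 6 hours. The origin recognition subunits did not pass the limit: Orc5 had 813 at 12 hours and 557 at 6 hours, and Orc2 had 459 and 538, while a dimmer Orc2 probe set went the other way with 258 and 132. Cdt1 and Cdc45 thus passed, and neither origin subunit above 500 did.

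At the fork itself, Prim1, the catalytic primase subunit that lays down RNA primers, had 705 at 12 hours and 250 at 6 hours, or 2.82-fold more. Dnmt1, which copies DNA methylation onto the new strand, had 765 at 12 hours and 249 at 6 hours, or 3.07-fold more. Other fork genes were brighter at 12 hours without passing. Rpa1, of the single-strand binding complex, had 1240 and 630, a log2 difference of 0.98. Rfc1, of the clamp loader, had 1220 and 761, and Pold2, of the lagging-strand polymerase, had 849 and 618. Pcna, the sliding clamp and a common marker of S phase, had 2130 at 12 hours and 1970 at 6 hours, a log2 difference of 0.11. Top1, which relieves twist ahead of the fork and also serves transcription, had 5680 and 8180. Pcna thus did not share the size of the Mcm differences.

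The 12 replication genes on the arrays that stayed at or below 500 at both times cannot pass the limit. Of these, 9 were brighter at 12 hours, 1 was dimmer and 2 were at the floor at both times. Lig1, which joins lagging-strand fragments, had 483 at 12 hours and 167 at 6 hours. Fen1, which trims those fragments, had 311 and 149, and Rpa2 had 490 and 222. Prim2, the partner of Prim1, had 352 at 12 hours and 101 at 6 hours. Since a gene that is bright at 12 hours alone enters the count of 18 through that time, the genes were also chosen by a mean above 250 over the other 8 times, an alternative added after the data were seen. On that basis 8 of 18 replication genes were higher at 12 hours, with a median log2 difference of 0.83.

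Of 12 genes for nucleotide synthesis above 500, 3 passed upward and 0 downward, with 3 of the 12 dimmer at 12 hours by any amount and a median log2 difference of 0.32. Rrm1, the large subunit of ribonucleotide reductase, had 903 at 12 hours and 311 at 6 hours, or 2.90-fold more. Tyms, thymidylate synthase, had 706 and 353, a ratio of 2.00. Dhodh, the mitochondrial enzyme of pyrimidine synthesis, had 568 at 12 hours and 227 at 6 hours, and 22 at 24 hours. Rrm2, the small reductase subunit, had 3 probe sets above 500 that all pointed upward within the limit, with 2420, 1480 and 1200 at 12 hours, against 1740, 1030 and 1010 at 6 hours. A dimmer Rrm2 probe set of the family class had 459 at 12 hours and 418 at 6 hours. Cad, the first enzyme of pyrimidine synthesis, had 1240 at 12 hours and 814 at 6 hours.

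**Figure D3:**
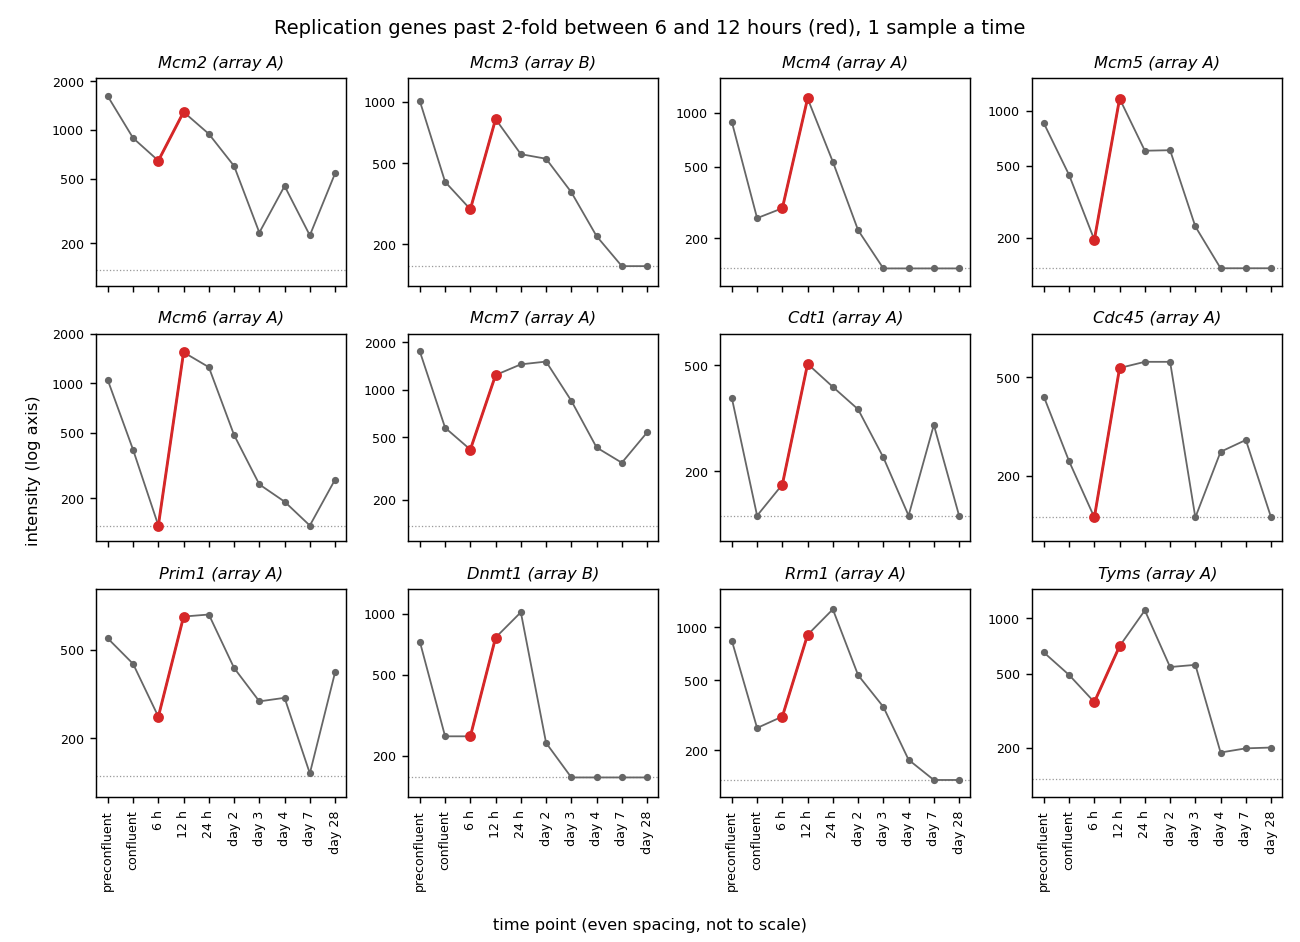
Intensity (log axis, low values at the floor, dotted line) of 12 replication and nucleotide supply genes over the 10 time points, evenly spaced and not to scale, 1 sample a point; the 6 to 12 hours step is red. In each panel the 12 hours point lies above the 6 hours point, and most genes are dimmer from day 3 on.

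Over the whole series the helicase genes described a single early peak after induction. Their geometric mean intensity was 1144 in preconfluent cells, 459 in confluent cells, 292 at 6 hours, 1191 at 12 hours, 821 at 24 hours and 560 on day 2. It then lay at 285 on day 3, 230 on day 4, 176 on day 7 and 245 on day 28. The 12 hours value was close to that of preconfluent, growing cells, and the 6 hours value was below that of confluent cells. RNA was pooled from whole cultures, so more cells in cycle and more RNA per cell cannot be told apart.

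Of 12 genes for G1 and S phase cyclins, their kinases and E2F factors above 500, 3 passed upward and 0 downward, with a median log2 difference of 0.61. Cdk2, the kinase that drives entry into S phase, had 632 at 12 hours and 68 at 6 hours, at least 4.65-fold higher. Ccne1, its cyclin E partner, had 1920 at 12 hours and 940 at 6 hours, or 2.04-fold more. The Ccne1 series was flat beforehand, with 1100 in preconfluent cells, 1060 in confluent cells, 940 at 6 hours, 1920 at 12 hours and 842 at 24 hours. Later Ccne1 was brighter than at 12 hours, with 2380 on day 2 and 2480 on day 3. Cks1b, a small subunit of Cdk complexes, had 872 and 350, or 2.49-fold more, and 2060 at 24 hours.

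E2f1, the factor itself, had 2060 at 12 hours and 1130 at 6 hours, a log2 difference of 0.87 that lay within the limit. As for Ccne1, its 12 hours sample stood above every early neighbour, with 1150 in preconfluent cells, 1090 in confluent cells, 1130 at 6 hours, 2060 at 12 hours and 1170 at 24 hours. A second E2f1 probe set lay below the floor at both times, with 133 at 12 hours and -289 at 6 hours. Ccna2, the cyclin A of S phase and G2, had 1060 at 12 hours and 542 at 6 hours, a log2 difference of 0.97, and 3470 at 24 hours. Ccnd1, the cyclin D that responds to mitogens, had 4080 and 2470. Tfdp1, the partner of E2F proteins, had 2140 at 12 hours and 1510 at 6 hours. Ccnd2 had 4150 and 4040, and Cdk4, the kinase partner of the D cyclins, had 2410 and 2130. The probe sets of Ccnd3 disagreed, with 1730 and 4070 at 12 hours, against 1060 and 4760 at 6 hours.

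Among 15 CDK inhibitor and growth arrest genes above 500, 0 passed the limit in either direction. Cdkn1b, the inhibitor p27 that holds arrested cells, had 460 at 12 hours and 568 at 6 hours. Cdkn2c, which binds Cdk4 and Cdk6, had 1050 and 786. Btg3, an antiproliferative factor, had 398 at 12 hours and 753 at 6 hours. Cdkn1a, the inhibitor p21, had probe sets on both arrays that disagreed, with 713 and 1430 at 12 hours, against -148 and 1760 at 6 hours.

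Of 14 mitosis genes above 500, 2 passed upward, or 14.3%, and 0 downward. Among all named genes 5.38% passed upward. By any amount 10 of the 14 were brighter at 12 hours, with a median log2 difference of 0.48. Top2a, which untangles replicated chromosomes, had 817 at 12 hours and 274 at 6 hours, or 2.98-fold more. Anln, an actin-binding protein of the cleavage furrow, had 873 at 12 hours and 250 at 6 hours, or 3.49-fold more. Both came from probe sets of the family class. The other mitosis genes were within the limit, and several were much brighter one sample later. Mki67, a marker of cycling cells, had 639 at 6 hours, 909 at 12 hours and 4490 at 24 hours. Cdk1, the mitotic kinase, had 1540, 2120 and 4750 at the same times, and Kif20a, a motor of the central spindle, had 509, 743 and 2050. The dim mitosis gene Ccnb2, a mitotic cyclin, had 209, 180 and 2260, and Plk1, a kinase of mitotic entry, had 874, 588 and 1260.

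The same rule was applied to the neighbouring steps, which share the 12 or the 6 hours sample with this one, so the counts stand side by side. From 12 to 24 hours 1 of 19 replication genes was higher and 1 lower, with a median log2 difference of 0.03, while 19 of 27 mitosis genes were higher and 0 lower, with a median of 1.51. From confluence to 6 hours 1 of 12 replication genes was higher and 2 lower, and 0 of 11 mitosis genes were higher and 1 lower. Over all named genes the shares at 24 against 12 hours were 5.27% higher and 4.80% lower, and at 6 hours against confluence 8.68% and 8.30%.

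Preconfluent and confluent cells, which share no sample with this step, give the levels of these genes in ordinary growth and in arrest. There 9 of 19 replication genes were higher in preconfluent cells and 0 lower, with a median log2 difference of 0.95, beside 8.03% higher and 7.99% lower among all named genes. Of 22 mitosis genes 13 were higher and 0 lower, with a median of 1.24. Among all probe sets of array A 8.85% were higher and 7.40% lower in preconfluent than in confluent cells. Of the 87 probe sets of array A that were higher at 12 hours and above 500 in this second comparison too, 20 were higher and 8 lower in preconfluent cells. Of the 84 that were lower at 12 hours, 19 were higher and 6 lower. On array B, with 10.1% higher and 7.00% lower in preconfluent cells, 11 of the 43 that were higher at 12 hours were higher there and 2 lower. Of the 59 of array B that were lower at 12 hours, 8 were higher and 11 lower in preconfluent cells.

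Of 16 histone and chromatin assembly genes above 500, 2 were higher and 1 lower, with 14 of the 16 brighter at 12 hours by any amount and a median log2 difference of 0.37. Ezh2, the methyltransferase of Polycomb repression, had 572 at 12 hours and 117 at 6 hours, at least 4.21-fold higher. Hat1, which acetylates new histone H4 before it is deposited on DNA, had 624 at 12 hours and 155 at 6 hours, or 4.03-fold more. A second Hat1 probe set, which stayed below 500, went the other way with 325 at 12 hours and 452 at 6 hours. Hmga2, an architectural protein of growing cells, went the other way with 2470 at 12 hours and 5060 at 6 hours, or 2.05-fold less. Its series was 5030 in preconfluent cells, 953 in confluent cells, 5060 at 6 hours, 2470 at 12 hours and 749 at 24 hours. Rbbp4, a histone chaperone subunit, had 1400 at 12 hours and 805 at 6 hours, and H2az1, a histone variant, had 1730 and 1240.

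Among 7 repair and checkpoint genes above 500, 3 were higher and 1 lower. Apex1, the endonuclease of base excision repair, had 754 at 12 hours and 209 at 6 hours, or 3.61-fold more. Ercc1, of nucleotide excision repair, had 629 and 268, or 2.35-fold more. Smc3, a cohesin subunit that holds sister chromatids together, had 1040 and 502, or 2.07-fold more. Ogg1, which removes oxidised guanine, had -289 at 12 hours and 517 at 6 hours, at least 3.80-fold lower. On that probe set Ogg1 had -119 in preconfluent cells, -168 in confluent cells and -119 at 24 hours. A second Ogg1 probe set was below 0 at both times, with -345 at 12 hours and -186 at 6 hours, so the Ogg1 difference rests on 1 set.

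Other lists held a few genes on the higher side. Cse1l, which returns importin alpha to the cytoplasm, had 522 at 12 hours and 106 at 6 hours, at least 3.84-fold higher, and Kpnb1, importin beta, had 606 and 300, or 2.02-fold more. They were 2 of 22 nuclear transport and RNA processing genes, with 0 lower. Cct3, a subunit of the chaperonin that folds actin and tubulin, had 1260 at 12 hours and 548 at 6 hours on a family probe set. Sars, the seryl-tRNA synthetase, had 829 and 340, and Psmb7, a proteasome subunit, had 1050 and 484. Of 31 chaperone genes above 500, 1 was higher and 2 were lower. Of 23 translation genes 1 was higher, and of 24 proteasome genes 1, with 0 lower in each. The shares higher, 3.23%, 4.35% and 4.17%, were below the 5.38% of all named genes. In cholesterol synthesis, 2 of 4 genes above 500 were higher. Hmgcs1, an early enzyme, had 520 at 12 hours and 243 at 6 hours, or 2.14-fold more, beside 2050 in preconfluent and 1370 in confluent cells. Idi1, which makes the isoprenoid building block, had 630 at 12 hours and 121 at 6 hours, at least 4.63-fold higher, beside 618 in confluent cells.

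Genes for secreted proteins, and for the enzyme Hsd11b1, were among the higher genes too. Lcn2, a siderophore-binding protein of the acute phase, had 2950 and 1090 on its pair of probe sets at 12 hours, against 818 and 108 at 6 hours, and 4420 and 2040 at 24 hours. Both probe sets showed the same order of samples. Vcan, a large matrix proteoglycan, had 11000 at 12 hours and 5010 at 6 hours, or 2.20-fold more. Prl2c3, a proliferin-family hormone, had 2320 and 872, or 2.66-fold more, on a family probe set. Hsd11b1, the enzyme that regenerates active glucocorticoid, had 565 at 12 hours and 25 at 6 hours, at least 3.62-fold higher, and 1460 at 24 hours.

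On the lower side the immediate early and cyclic AMP response list held the most genes past the limit. Of its 19 genes above 500, 4 were lower, or 21.1%, and 0 higher, with a median log2 difference of -0.52. It came first by count only. The chemokine list, with fewer genes above 500, had a larger share lower, and the glucocorticoid list had a lower median. With probe sets of the plain class alone 2 genes of the immediate early list were left above 500, 0 were lower and the median was 0.17. Ier3, an early gene tied to cell survival, had 370 at 12 hours and 2140 at 6 hours, or 5.78-fold less. Dusp1, the phosphatase that shuts off MAP kinases, had 1830 and 4730, or 2.58-fold less. Id3, an inhibitor of helix-loop-helix factors, had 613 at 12 hours and 1660 at 6 hours, or 2.71-fold less. Ier2 had 218 and 503, or 2.31-fold less. Ier3, Dusp1 and Ier2 had been brighter at 6 hours than in confluent cells, where they had 694, 293 and 230.

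Others of the list were dimmer at 12 hours within the limit. Nr4a1, an orphan nuclear receptor of the early response, had 2940 at 12 hours and 5730 at 6 hours, a log2 difference of -0.96. Rgs2, which dampens G protein signals, had 1370 and 2590, or -0.92 on the log2 scale. Klf2, a zinc finger factor, had 359 and 621. The C/EBP factors that open fat cell differentiation were still bright, as Cebpb had 9240 at 12 hours and 9960 at 6 hours, and Cebpd had 1030 and 1510. Fos lay at or below the floor at both times on both of its probe sets.

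Among glucocorticoid response genes the members past the limit and the median differed in sign. Of 13 above 500, 2 were higher, namely Lcn2 and Hsd11b1, and 0 were lower, while the median log2 difference was -0.55. With plain probe sets alone 3 genes were left and the median was 0.21. Fkbp5, a chaperone of the glucocorticoid receptor, had 5700 at 12 hours and 9460 at 6 hours. Mt2, a metallothionein, had 29300 and 43500, and Errfi1, an inhibitor of EGF receptors, had 2510 and 4760. Per1, a clock gene, had 2000 at 12 hours and 1730 at 6 hours. The 6 hours levels of Fkbp5 and Mt2 stood far above those of confluent cells, which were 1410 and 4770.

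Vcam1, a cell adhesion molecule of inflamed tissue, showed the largest difference among the listed genes on the lower side, with 982 at 12 hours and 7150 at 6 hours, or 7.28-fold less. Its level had been 2030 in preconfluent and 5120 in confluent cells and was 1080 at 24 hours. Csf1, the macrophage growth factor, had 119 at 12 hours and 928 at 6 hours, at least 6.82-fold lower. The Csf1 series was 2390 in preconfluent cells, 1360 in confluent cells, 928 at 6 hours, 119 at 12 hours and 283 at 24 hours. Both genes stayed low at the next time point.

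Matrix and cytoskeletal genes were also among those past the limit. Timp3, an inhibitor of matrix metalloproteases, had 508 at 12 hours and 2350 at 6 hours, or 4.63-fold less. Thbs1, the adhesive glycoprotein thrombospondin, had 202 and 824, or 4.08-fold less. Mfap2, a microfibril protein, had 345 and 831, or 2.41-fold less. With Vcan counted upward, the 30 interstitial matrix genes above 500 held 3 lower and 1 higher, so the group as a whole had no direction. Of 27 actin and adhesion genes 3 were lower and 0 higher, with 22 of 27 dimmer at 12 hours by any amount and a median log2 difference of -0.40. Tpm1, a tropomyosin of stress fibres, had 738 at 12 hours and 2120 at 6 hours, or 2.87-fold less. Zyx, zyxin of focal adhesions, had 2180 and 4800, or 2.20-fold less, and Cd44, the hyaluronan receptor, had 190 and 528, or 2.78-fold less. Tpm1 and Zyx were already dimmer at 6 hours than in confluent cells, where they had 4580 and 6360.

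**Figure D4:**
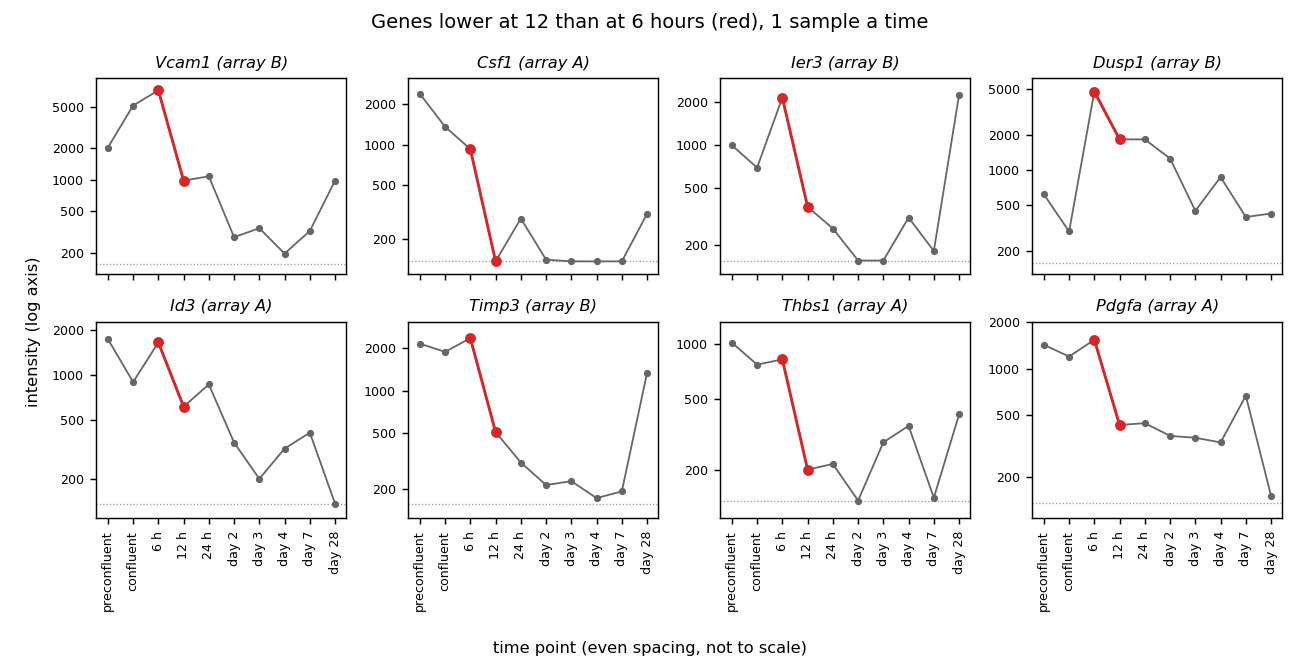
Intensity (log axis, low values at the floor, dotted line) of 8 genes that were lower at 12 than at 6 hours, over the 10 time points, evenly spaced and not to scale, 1 sample a point; the 6 to 12 hours step is red. Dusp1 and Ier3 were brighter at 6 hours than at confluence, while Vcam1, Csf1, Timp3 and Thbs1 were already bright before induction.

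Of 17 growth factor and insulin signalling genes above 500, Pdgfa, Fgfr1 and Vegfa were lower and Prl2c3 higher, with 8 brighter and 9 dimmer at 12 hours by any amount and a median log2 difference of -0.16. Pdgfa, the A chain of platelet-derived growth factor, had 434 at 12 hours and 1540 at 6 hours, or 3.55-fold less. Fgfr1, a fibroblast growth factor receptor, had 2250 and 6090, or 2.71-fold less. Vegfa, the main factor of vessel growth and a target of stress signalling, had 403 at 12 hours and 1010 at 6 hours, or 2.51-fold less. Vegfa had 213 in confluent cells and 207 at 24 hours, so its 6 hours sample stood apart from those on either side. Herpud1, a factor of protein quality control in the endoplasmic reticulum, had 160 and 516, or 3.23-fold less; it and Vegfa were the 2 of 15 integrated stress genes past the limit, with 14 of the 15 dimmer at 12 hours by any amount. Hspb1, the small heat shock protein, had 736 and 1760, or 2.39-fold less, with 293 in confluent cells.

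Among the lists of metabolic genes, 1 of 11 fatty acid synthesis and storage genes and 2 of 14 glycolysis and glucose uptake genes were lower, with 0 higher in either. The shares lower were 9.09% and 14.3%, beside 5.59% of all named genes. They rest on 1 and 2 genes and are not read as a result about the lists. Fabp5, a fatty acid carrier, had 546 at 12 hours and 2000 at 6 hours, or 3.66-fold less, on a family probe set, and 3080 at 24 hours, so the 12 hours sample was the low one among its neighbours. Ldhb, a lactate dehydrogenase subunit, had 295 and 290 on its pair of family probe sets at 12 hours, against 960 and 766 at 6 hours. Slc16a1, the lactate transporter, had 883 at 12 hours and 2430 at 6 hours, or 2.75-fold less, with 441 in confluent cells. Oxidative phosphorylation, ribosome biogenesis, interferon response and adipogenic transcription factor genes had 0 members past the limit in either direction, of 21, 23, 7 and 8 above 500. Among all named genes 5.38% were higher and 5.59% lower, so few members of lists this short would pass at those shares.

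**Figure D5:**
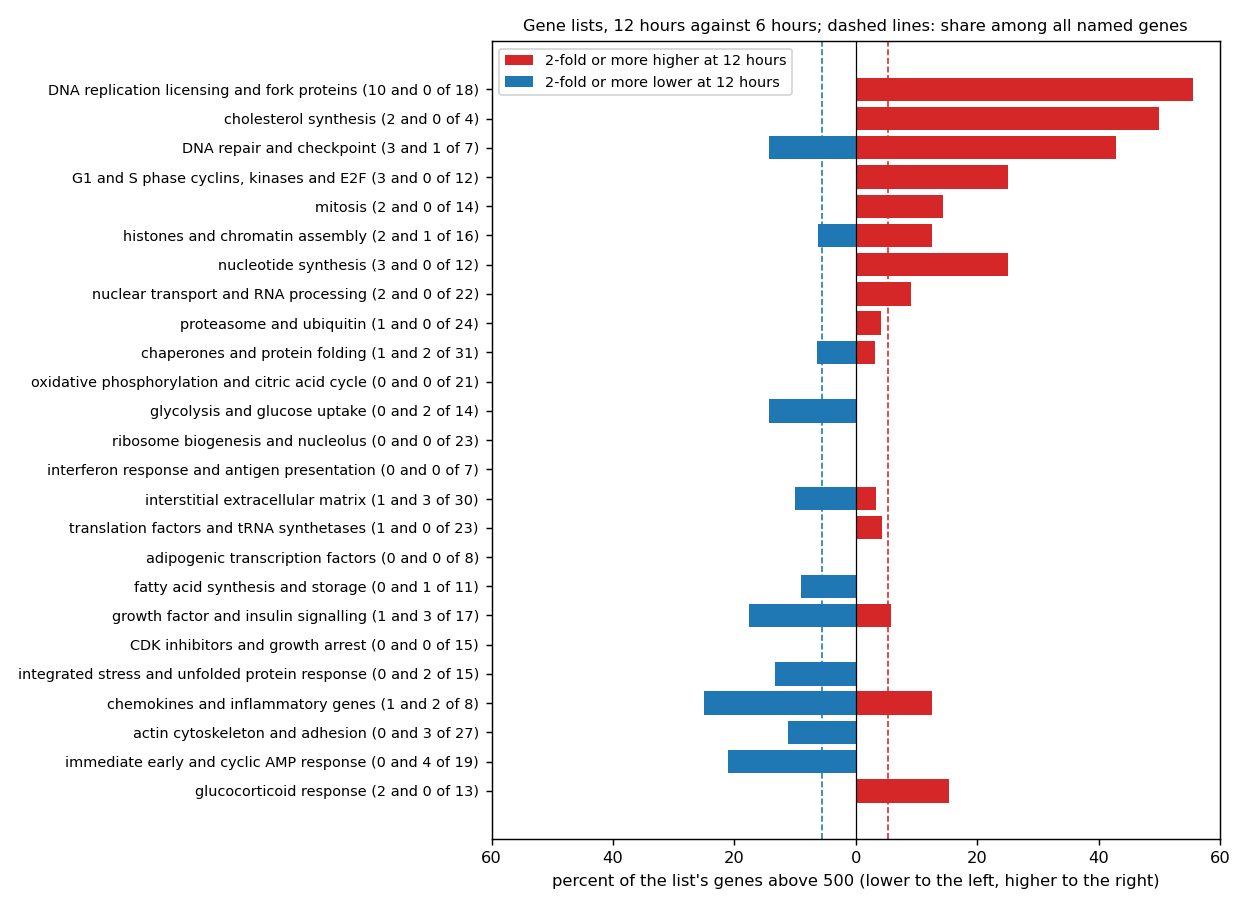
Percent of each gene list's members above 500 that were 2-fold or more higher (red, right) or lower (blue, left) at 12 than at 6 hours; the counts higher and lower and the number above 500 stand in each label, and dashed lines mark the shares among all named genes. The replication list has the longest red bar, and the chemokine and immediate early lists the longest blue ones.

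The 15 largest ratios upward held, beside Mcm6, Mcm5, Cdk2, Idi1 and Lcn2, genes without a common role. Ssbp4, a single-strand DNA binding protein, had 1260 at 12 hours and 122 at 6 hours, at least 9.26-fold higher, though confluent cells already had 1270. Rnf220, a ubiquitin ligase, had 1090 and -81, at least 8.01-fold higher, with 821 in confluent cells. Sod3, the extracellular superoxide dismutase, had 621 and -79, at least 4.57-fold higher, with 508 in confluent cells. A second Sod3 probe set, on array B, differed by only 0.04 on the log2 scale. On the array A probe sets of Ssbp4, Rnf220 and Sod3 the 6 hours sample was the low one, and 12 hours was near or above the confluent level. Vac14, of the endosomal lipid kinase complex, had 814 and 150, and Apoa4, an apolipoprotein, had 849 and 156. Confluent cells had 620 and 512 for these genes, so their 6 hours sample was below confluence too. Abcf1, an ATP-binding translation factor, had 1010 at 12 hours and 153 at 6 hours, or 6.60-fold more, with 274 in confluent cells and 1030 at 24 hours. Fmr1nb had 763 and 13, Lrrc57 had 696 and 31, and Platr25, a non-coding transcript, had 642 and 109. In confluent cells Fmr1nb, Lrrc57 and Platr25 had 367, 479 and 367, again above their 6 hours values.

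Mtm1, annotated as the phosphoinositide phosphatase myotubularin, had 3 probe sets past the limit, with 2730, 697 and 2240 at 12 hours, against 350, 167 and 1030 at 6 hours. In preconfluent cells the same sets had 2710, 809 and 2940, and in confluent cells 279, 133 and 684. All 3 sets were thus brighter in preconfluent cells and at 12 hours than in confluent cells and at 6 hours. Gene names here rest on an early platform annotation, and 2 of the 3 sets are of the family class. Trim47, a ubiquitin ligase, had 1000 and 557 on its pair of probe sets at 12 hours, against 395 and 21 at 6 hours, with 1180 and 536 in confluent cells.

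The 15 largest ratios downward held, beside Vcam1, Csf1 and Ier3, genes without a common role. Cd3e, a T cell receptor chain, had -77 at 12 hours and 1260 at 6 hours, at least 9.26-fold lower, with 501 in confluent cells and -3 at 24 hours. Rit1, a Ras-like GTPase, had -113 and 1040, at least 7.65-fold lower, with 70 in confluent cells and 137 at 24 hours. Ash2l, of histone methyltransferase complexes, had 85 and 852, and Ly86, a partner of a Toll-like receptor relative, had -50 and 768. Synpo, synaptopodin, an actin-binding protein, had 169 at 12 hours and 1040 at 6 hours, or 6.15-fold less, with 1020 in confluent cells and 426 at 24 hours. For Znrf1, Gmip and Coro2b the 12 hours sample was the low one: they had 670, 540 and 693 in confluent cells, 1100, 915 and 808 at 6 hours, 116, 96 and 3 at 12 hours, and 724, 363 and 623 at 24 hours. Polr2g, an RNA polymerase II subunit, had 42 at 12 hours and 847 at 6 hours, while a second Polr2g probe set differed by only -0.37 on the log2 scale. Cyp27b1, which activates vitamin D, had 145 at 12 hours and 861 at 6 hours, with 795 in confluent cells and 489 at 24 hours. Its 12 hours sample was thus also the low one. Dolpp1 had -468 at 12 hours and 685 at 6 hours, and Slk, a kinase, had -416 and 682. Gng11, a G protein gamma subunit with agreeing probe sets, had 3910 and 1180 at 12 hours, against 8170 and 3550 at 6 hours.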

How the data were processed

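Total RNA of 3T3-L1 cultures had been labelled from 10 µg and hybridised to 2 Affymetrix array types, per the labels' protocols. The deposited values are linear intensities per probe set made by the authors; the software and version are not given in the sources used here. Values below 0 occur, as with matched minus mismatched probes, and the trimmed mean was 501 on all 4 arrays, so the authors' scaling was kept. Whether both array types received the same RNA is not stated.

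The 110 control probe sets were left out, leaving 13069 (6529 on array A, 6540 on array B). The platform annotation gave 7542 of them 1 gene symbol, 224 several and 5303 none; sets with several were not named. Floors were 136 and 156, the limit 2-fold with a brighter value above 500. No test was possible with 1 sample a side. The calculation was tested on simulated data before use. Python 3.11.15, numpy 2.4.6, pandas 2.3.3 and matplotlib 3.10.9 were used. Promoters came from RefSeq (GRCm38.p6).

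The members, the 25 gene lists and the 5 marker lists were chosen with earlier results of these data known. Named were the 15 largest differences each way with agreeing probe sets, list members past the limit, genes with several probe sets past it or disagreeing, and list members within it as examples. Alternatives varied the floor, both limits, the scaling, the probe set choice and the probe set classes.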

Additional observations from a re-analysis of the deposited data

Results flagged for a closer look

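Control probe sets for the mouse pyruvate carboxylase transcript, the gene Pcx, were left out of the comparison and nevertheless passed the 2-fold limit. On array A the 3' set had 1520 at 12 hours and 589 at 6 hours, a ratio of 2.58, and the middle set MA had 656 and 250, a ratio of 2.62. On array B the 3' set had 2220 at 12 hours and 897 at 6 hours, a ratio of 2.47, and the middle set MB had 1290 and 552, a ratio of 2.34. The other pyruvate carboxylase controls also had higher values at 12 hours, with 348 and 228 for the 5' set on array A and 337 and 244 on array B. The ordinary Pcx probe set on array A stayed below 500, with 427 at 12 hours and 138 at 6 hours, then 567 at 24 hours. Both kinds of set were brighter later in the series. The 3' control set of array A had 2350 at 24 hours and 14100 on day 4, and the ordinary Pcx set had 3060 on day 4.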

How the results depend on the processing

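No paired analysis was possible because each time point holds 1 sample per array type, and for the same reason no replicate could be left out. The counts below are, in this order, higher and lower on array A and higher and lower on array B. They were 250, 225, 95 and 125 with the brighter value above 300, and 40, 44, 28 and 43 with it above 1000, where 5 replication genes were higher. At 1.5-fold they were 303, 276, 154 and 215, with 8 immediate early genes lower, and at 3-fold 50, 51, 17 and 27, with 5 replication genes higher and 1 immediate early gene lower. With only probe sets of the plain class kept they were 34, 24, 7 and 9, with 1 of 3 replication genes higher and 0 immediate early genes lower, since far fewer genes were left. A floor moved 2-fold up or down, centring, quantile normalization, leaving out family sets and asking for both values above the floor kept these counts within 1.5 times; between 8 and 10 replication genes were then higher. The last 2 of these, and the choice of genes by the other 8 times, were added after the data were seen. No difference named among the 15 largest each way changed direction under either floor, centring or quantile normalization. A common floor cannot reverse a direction, and centring moved the log2 differences by only 0.04 on each array. These settings therefore could not test the direction of such large differences. Medians of the CDK inhibitor, interstitial matrix, translation, fatty acid, adipogenic factor and glycolysis lists changed sign under some settings. Those of the immediate early and glucocorticoid lists, below 0 otherwise, were 0.17 over 2 genes and 0.21 over 3 with plain probe sets alone. Intensities near the floor, a large share of both arrays, limit what can be ranked.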
